A study of Homo sapiens with 6 samples.

Results

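The genes described here encode proteins of the mitochondrial ribosome, taken as every symbol made of MRPL or MRPS and a number (with A, B or C where a gene has copies). The rule found 75 of the 16444 genes in the authors' spike-in table, and the same 75 are among the 12075 genes with expression values. Of these, 49 belong to the large (39S) subunit, MRPS30 and MRPS18A among them, and 25 to the small (28S) subunit. MRPS36 carries the name but is known as a subunit of the 2-oxoglutarate dehydrogenase complex, and it was kept apart from both. MRPS18B was not analysed here.

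The cells were KMS-27, an established line of human multiple myeloma, a cancer of antibody-secreting plasma cells. They had received either a control siRNA (siControl, 3 libraries) or an siRNA that silences AATF (siChe-1, 3 libraries), the gene of Che-1, a nuclear protein that binds RNA polymerase II. No other allele or agent is named, and the time after transfection was not used here. Per the labels, a stranded kit turned 500 ng of ribosome-depleted total RNA into each library, and external spike-in RNAs (ERCC) were sequenced along. The study compared the transcriptome of the cells with and without Che-1. Both groups are a single cell line, and nothing in the labels says that libraries came from separate cultures, so p-values here reflect no more than how these libraries vary, which may be technical variation.

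Mitochondria make the few membrane proteins encoded by their own DNA, core subunits of the respiratory chain and ATP synthase, on ribosomes of their own. The ribosomal RNAs come from mitochondrial DNA, while every protein of these ribosomes is encoded in the nucleus, made in the cytosol and imported. Some of the proteins have a bacterial counterpart (for example MRPL11, the counterpart of bacterial L11) and others are found only in mitochondria (for example MRPS34).

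AATF itself was at 88.8 to 112 FPKM (fragments per kilobase of transcript and sequencing depth, rescaled between libraries) in siControl and at 14.8 to 17.2 in siChe-1. It fell by 2.57 ± 0.11 on the log2 scale (SE, limma, adjusted p = 0.000117), with no overlap between the groups. Of 8 plasma cell markers, 7 were at 10 FPKM or more, and their sum was 746 to 827 in siControl and 750 to 812 in siChe-1. No marker of monocytes, stroma or epithelium was listed above 0, and of the T cell and erythroid markers only CD3G (0.53 FPKM) and HBB (0.27 FPKM) were. Recovered gene reads numbered 19169774 to 21780505 per library in the 5 libraries of the spike-in table, and siChe-1 replicate 3 is not in that table. Its 379232 spike-in reads lay within the siControl range (351573 to 519573) and far below those of siChe-1 replicates 1 and 2 (835414 and 1041244), so values scaled to spike-ins rest on these 2 siChe-1 libraries.

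Relative to other genes, mitochondrial ribosomal proteins were lower in siChe-1. Together they took 0.667%, 0.703% and 0.725% of all FPKM in the siControl libraries (mean 0.698 ± 0.030, SD, n = 3). In siChe-1 they took 0.588%, 0.607% and 0.598% (mean 0.597 ± 0.009, SD, n = 3), so that the groups did not overlap. The median member stood at 80.1% of its siControl mean. By limma on log2(FPKM + 1), 29 of the 74 members tested (39.2%) were called lower at an adjusted p under 0.05 and 0 higher, where 15.1% of all 6285 genes tested were called lower and 15.1% higher. The change was negative for 67 members and positive for 7, and its median was -0.31 on the log2 scale, against -0.004 for all genes. MRPS25, at a mean of 5.8 FPKM, was under the minimum of 10 FPKM and was not tested here.

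**Figure D1:**
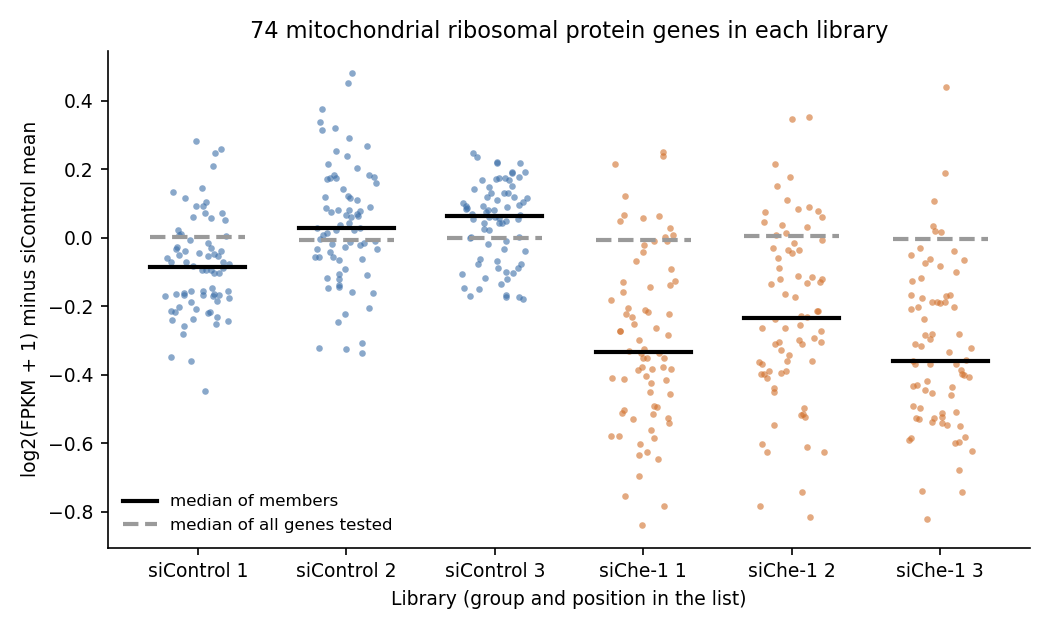
Each point is 1 of 74 members in 1 library, as log2(FPKM + 1) minus that gene's siControl mean (vertical axis), with libraries along the horizontal axis. Black lines are the medians of the members and dashed grey lines those of all genes tested: the members' medians are -0.09 to 0.06 in siControl and -0.36 to -0.23 in siChe-1, while the grey lines stay within 0.01 of 0.

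By library, the members' median minus that of all genes was -0.09, 0.03 and 0.07 in the siControl libraries and -0.33, -0.24 and -0.35 in the siChe-1 libraries. The lowest siControl library therefore still lay above the highest siChe-1 library. For 35 of 74 members (47.3%) all siChe-1 libraries were below all siControl libraries, 23 of them in the large and 12 in the small subunit, and for 0 members all were above. The same held for 22.8% (below) and 22.5% (above) of all genes tested. How many members were called depended on the libraries. Libraries are numbered here by their place in the authors' list of FPKM values. The count was 9 without listed siChe-1 library 3 (7.98% of all genes called lower), 12 without listed siControl library 3 (8.91%) and 18 without listed siChe-1 library 1 (9.5%). On the FPKM scale as deposited 40 members were called lower (with 592 genes in all called higher and 1279 lower, against 949 and 948 after rescaling), and with upper quartile scaling 23 were (1221 higher and 713 lower). Members are shorter than most genes, with a median coding transcript of 1030 bases against 1659. Among the 1234 other genes between the members' 10th and 90th percentile of both length and FPKM, 18.6% were called lower and 11.3% higher, with a median of -0.05.

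**Figure D2:**
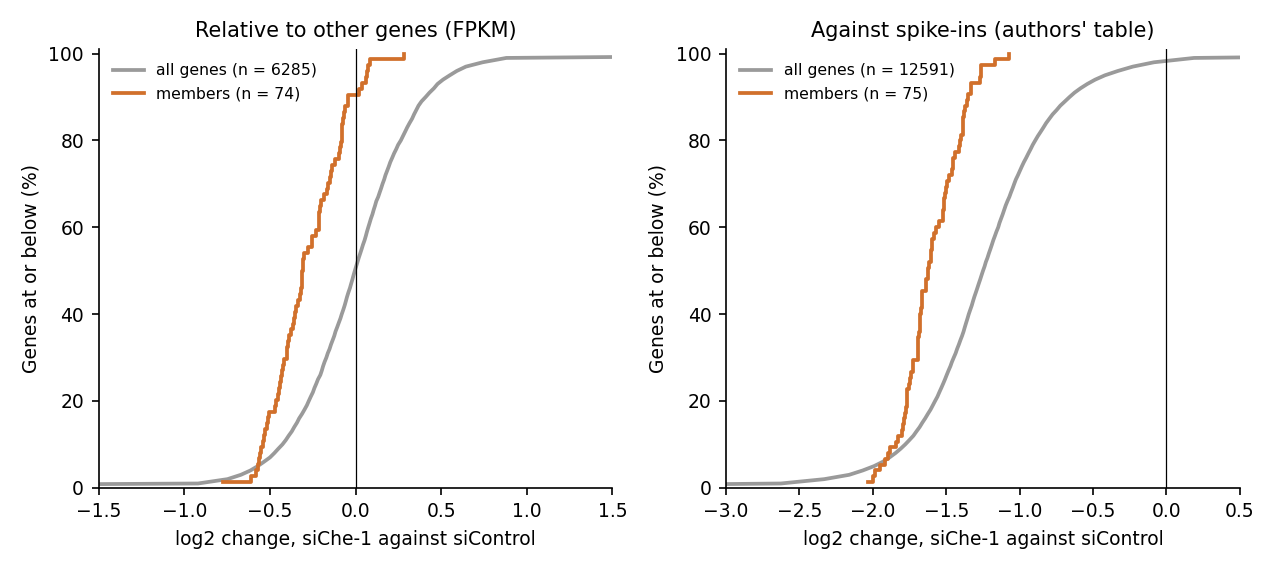
Cumulative share of genes (vertical axis, %) at or below each log2 change of siChe-1 against siControl (horizontal axis), on the FPKM scale (left) and in the authors' spike-in table (right). The curve of the members (orange) lies to the left of that of all genes (grey) over most of its length, with medians of -0.31 against -0.004 on the left and -1.62 against -1.25 on the right, while the lowest genes of all are not members.

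In the large subunit, 18 of 49 members were called lower, at a median change of -0.31, where 15.1% of all genes tested were called lower. MRPL49, a protein found only in mitochondrial ribosomes, was at 35.2, 35.1 and 39.5 FPKM in siControl and at 23.0, 25.2 and 24.1 in siChe-1. The groups stood well apart, and the change was -0.58 ± 0.08 (log2, SE, limma, adjusted p = 0.00236). MRPL1, the counterpart of bacterial L1 on the stalk beside the exit site for tRNA, was at 39.6, 39.4 and 32.6 FPKM in siControl and at 24.5, 23.9 and 25.4 in siChe-1. The third siControl library lay between the other siControl libraries and the siChe-1 group, and the change was -0.57 ± 0.09 (adjusted p = 0.00446). MRPL34, counterpart of bacterial L34, was at 82.7, 84.1 and 89.4 FPKM and at 64.3, 58.1 and 56.6 after silencing, a change of -0.51 ± 0.09 (adjusted p = 0.00532).

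The other large-subunit members among the 10 with the smallest p all have bacterial counterparts. MRPL35 went from a mean of 30.3 ± 2.7 FPKM (SD, n = 3) to 21.0 ± 1.5, a change of -0.51 (limma, adjusted p = 0.00665). MRPL36, counterpart of the small zinc-binding protein L36, went from 59.8 ± 7.3 to 41.0 ± 0.8 FPKM, and the siChe-1 libraries differed among themselves less than the siControl libraries. MRPL11, at the base of the stalk where translation factors bind, fell to 75.6% of its siControl mean, from 46.9 ± 2.6 to 35.5 ± 0.9 FPKM (adjusted p = 0.00821). MRPL4, which lines the tunnel for the growing peptide, fell to 73.2% (adjusted p = 0.0121), and MRPL16 to 71.8%, also with an adjusted p of 0.0121. Without listed siChe-1 library 3 MRPL16 was at -0.42 with an adjusted p of 0.0579. In none of these genes did the groups overlap.

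Among the most abundant large-subunit messages, MRPL3, the counterpart of L3 near the peptidyl transferase centre, was at 254, 175.6 and 238 FPKM in siControl and at 174.7, 128 and 156 in siChe-1. The groups touched without overlapping, and the change of -0.53 ± 0.17 missed the threshold (limma, adjusted p = 0.0507), lying just outside it together with MRPL40 (adjusted p = 0.0501). Without listed siControl library 2 MRPL3 was at -0.70 with an adjusted p of 0.0118. MRPL21 was at 142, 118 and 166 FPKM and at 99.9, 79.5 and 97.1 in siChe-1, a fall of -0.61 ± 0.15 that was the lowest change of the subunit (adjusted p = 0.0187). Its adjusted p was 0.0542 without listed siChe-1 library 3 and 0.0617 without listed siControl library 3. MRPL33, at 106, 109 and 129 FPKM in siControl and at 118, 97.5 and 110.3 in siChe-1, overlapped between groups (-0.08 ± 0.11, adjusted p = 0.648).

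**Figure D3:**
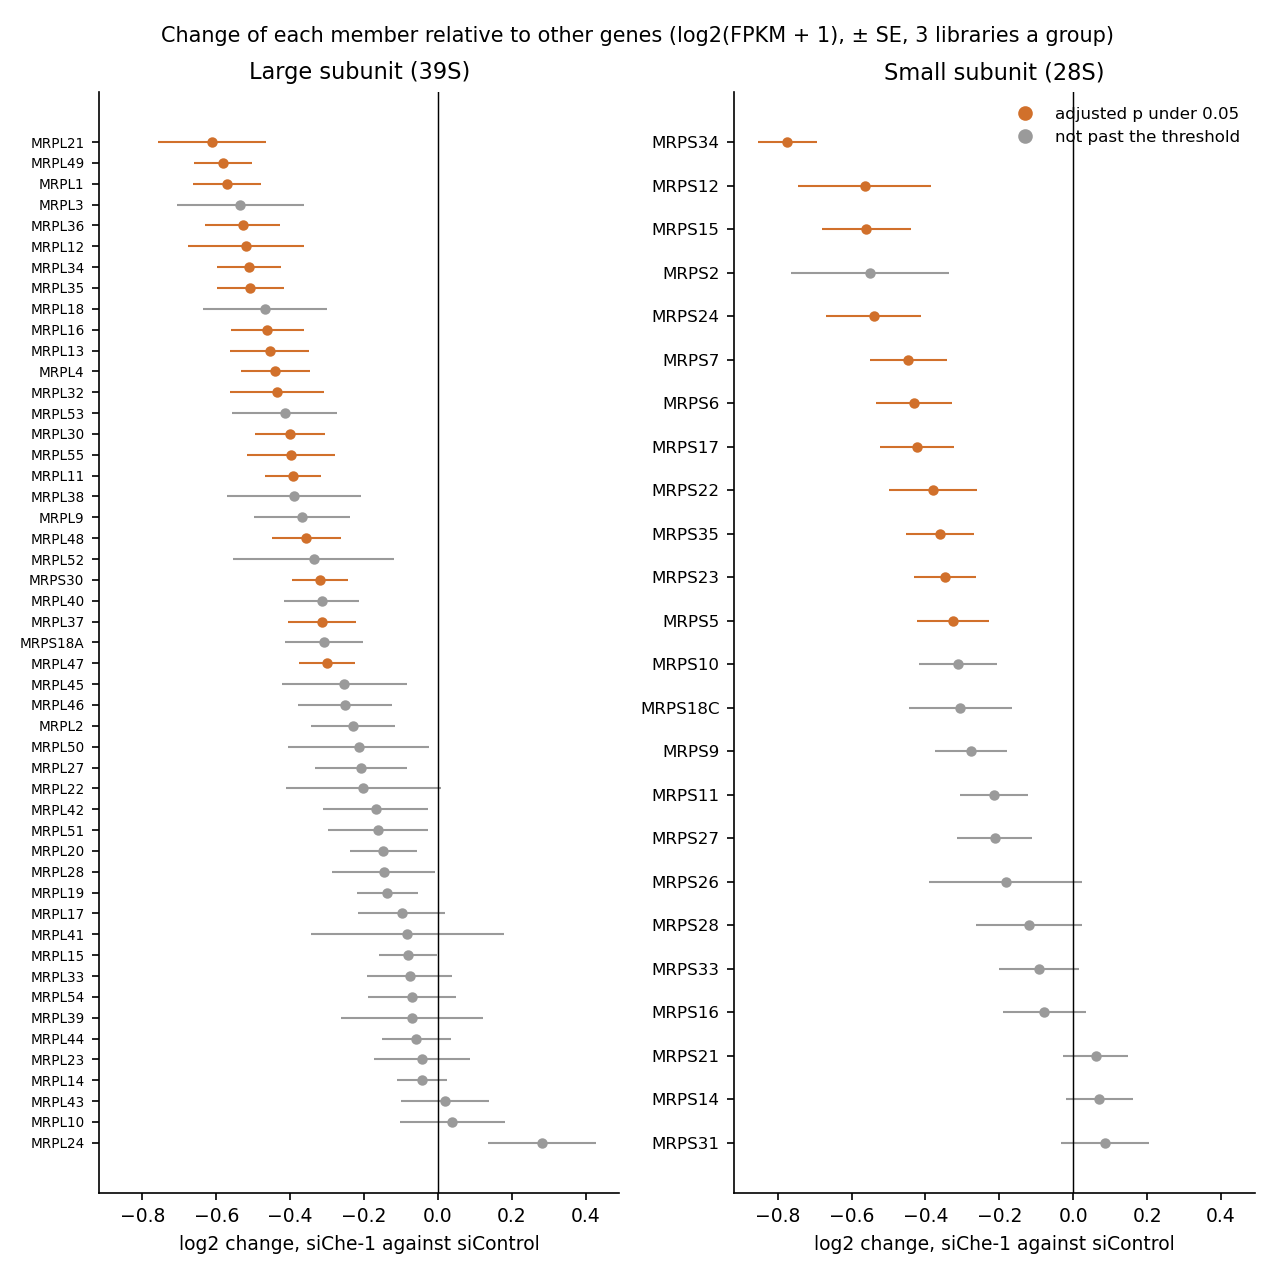
log2 change of each member (horizontal axis, siChe-1 against siControl, log2(FPKM + 1), points with bars of ± SE, 3 libraries a group), sorted within the large subunit (left) and the small subunit (right), with called members in orange. Changes run from -0.61 (MRPL21) to 0.28 (MRPL24) on the left and from -0.77 (MRPS34) to 0.09 (MRPS31) on the right, and no member to the right of 0 is called.

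In the small subunit, 11 of 24 members tested were called lower, at a median change of -0.32, where 15.1% of all genes tested were called lower. MRPS34, found only in mitochondrial ribosomes and needed to keep the small subunit and its RNA stable, had the lowest change and the smallest p of all members. It was at 92.9, 99.5 and 100.4 FPKM in siControl and at 54.1, 58.0 and 58.0 in siChe-1. The siChe-1 mean was 58.1% of the siControl mean, a change of -0.77 ± 0.08 (log2, SE, limma, adjusted p = 0.00101). MRPS15, counterpart of bacterial S15, an early binder of the small-subunit RNA, was at 83.9, 105 and 109.7 FPKM and at 63.5, 72.3 and 65.03 after silencing (-0.56 ± 0.12, adjusted p = 0.0126). Its adjusted p was 0.0558 without listed siChe-1 library 3.

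MRPS12, counterpart of the decoding-centre protein S12, lay just inside the threshold (adjusted p = 0.0489), with siControl libraries at 31.5, 42.8 and 36.8 FPKM and siChe-1 libraries at 20.9, 32.5 and 21.6. Its groups overlapped, since the second siChe-1 library was above the first siControl library. MRPS2 had a change of -0.55 as well, but an SE of 0.21, and was not called (adjusted p = 0.0892). MRPS24, counterpart of S3 at the entry of the mRNA channel, was at 127, 137 and 166 FPKM and at 91.8, 91.9 and 110.0 in siChe-1 (-0.54 ± 0.13, adjusted p = 0.0181). Its adjusted p was 0.0645 without listed siChe-1 library 1 and 0.0545 without listed siControl library 3.

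Some members had changes near or above 0. MRPS21, the counterpart of S21 and the most abundant message of the small subunit, was at 143, 154 and 161 FPKM in siControl and at 159, 162 and 156 in siChe-1. These groups overlapped, with a change of 0.06 ± 0.09 (limma, adjusted p = 0.634). MRPL24, counterpart of L24 near the exit of the peptide tunnel, was the member with the highest change, at 31.8, 37.1 and 44.7 FPKM in siControl and at 39.1, 47.9 and 51.3 in siChe-1. Libraries of both groups were spread over a wide range, and 0.28 ± 0.15 did not pass the test (adjusted p = 0.185). The changes of MRPS31, MRPS14, MRPS36 and MRPL10 lay between 0.09 and 0.04 and that of MRPL43 was 0.02, with adjusted p-values of 0.597 to 0.921. The sign of these 5, and of MRPS21, turned on the FPKM scale as deposited, so no direction is given for them. The 45 members not called ran from -0.55 to 0.28, and the 29 called from -0.77 (58.1% of siControl) to -0.30 (80.9%).

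**Figure D4:**
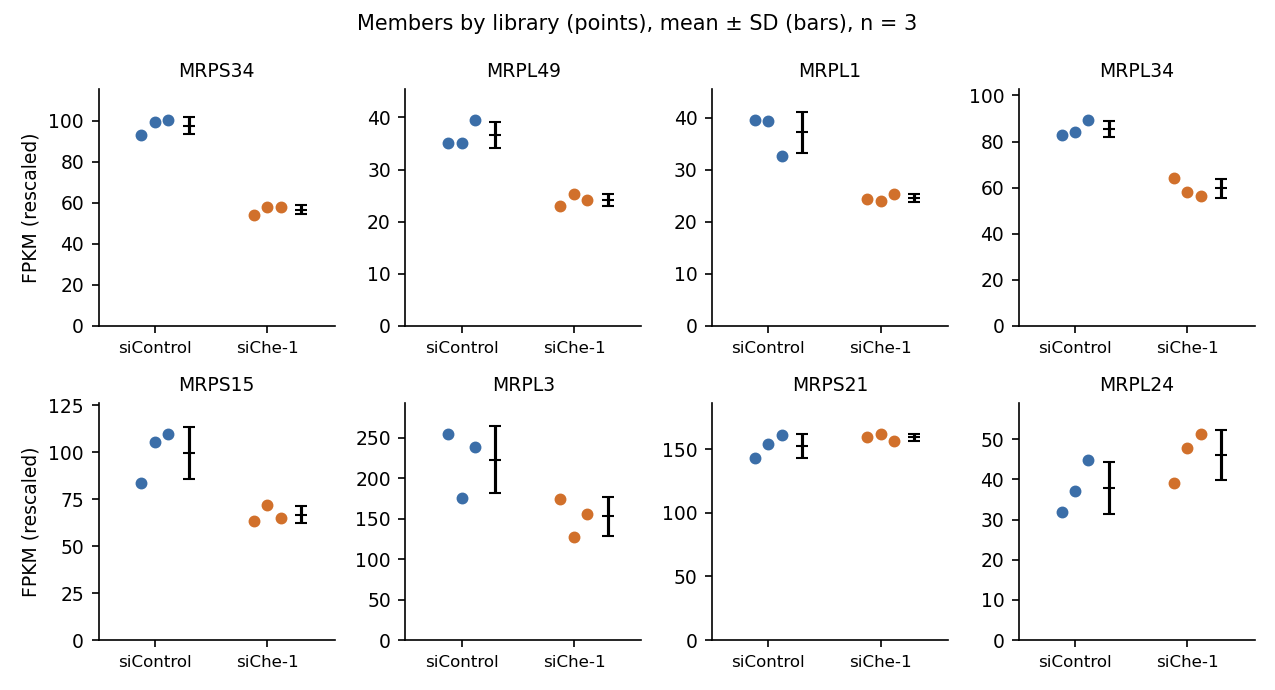
Rescaled FPKM (vertical axes, from 0) of 8 members in each siControl (blue) and siChe-1 (orange) library, with mean ± SD (n = 3) as bars. MRPS34, MRPL49, MRPL1, MRPL34 and MRPS15 show no overlap between groups, MRPL3 nearly touches (175.6 against 174.7), and MRPS21 and MRPL24 overlap.

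By role, the members listed here with a bacterial counterpart were called lower in 20 of 44 cases (median -0.35). The other members of both subunits were called in 9 of 29 tested (median -0.25). That list holds MRPS18C but not its paralogue MRPS18A, so the others are not all found only in mitochondria. The difference between these classes was not tested. Of the 5 stalk proteins, which recruit translation factors, MRPL11 (-0.39) and MRPL12 (-0.52, adjusted p = 0.0416) were called, while MRPL10, their anchor, was at 0.04. Of 5 proteins of the central protuberance only MRPL48 (-0.36) was called, though all 5 changes were negative, from -0.47 to -0.25. Around the exit of the peptide tunnel, 1 of 6 was called (MRPL47, -0.30) and the median was -0.13, with MRPL24 as the highest. All 3 proteins listed for decoding and mRNA entry, MRPS5 (-0.33), MRPS12 and MRPS24, were called. The paralogues MRPS18A and MRPS18C, which sit in different subunits, both changed by -0.31 and neither was called. Of all genes tested 15.1% were called lower. These groups hold few genes, and how they compare with that share or with one another was not tested.

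Reads recovered from the authors' means gave a second view of the same cells, in 5 libraries that are also in the FPKM table, so it is not independent. A member had 64 to 11376 reads in a library, with a median of 1132. Members took 0.514%, 0.533% and 0.546% of recovered gene reads in siControl and 0.427% and 0.426% in siChe-1. The 123 genes without recovered reads include abundant ones such as HSPD1 and some cytosolic ribosomal proteins, so these are not shares of all reads. With edgeR's quasi-likelihood test and TMM scaling, 38 of 75 members were called lower and 0 higher, where 15.3% of 12468 genes were called lower and 13.5% higher, and the median was -0.37 against -0.008. The count was 19 without siChe-1 replicate 1 (8.6% of all genes called lower), 17 without siChe-1 replicate 2 (8.47%) and 17 without siControl replicate 3 (9.33%). Both tests called 28 members, FPKM alone called MRPS24, reads alone called 10, and 36 were called in neither.

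The counts set several members beside their FPKM. MRPL3 had 10323, 7754 and 11376 reads in siControl and 6235 and 5932 in siChe-1. Its relative change in reads was -0.70 ± 0.14 (log2, SE, edgeR, adjusted p = 0.00321), past the threshold that it missed in FPKM. MRPS34 had 2165, 2518 and 2167 reads and then 1304 and 1359, a relative change of -0.80 ± 0.12 (adjusted p = 0.000407). MRPS24 had only 79, 109 and 92 reads and then 68 and 64, against a mean of 121 FPKM, and its change of -0.51 ± 0.23 was not called (adjusted p = 0.111). Its deposited span overlaps those of URGCP and the joint transcript URGCP-MRPS24 on the same strand, and their part in its counts was not tested. MRPL24 had 990, 1120 and 1204 reads and then 1188 and 1341 (0.18 ± 0.11, adjusted p = 0.243).

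Scaled to the spike-ins instead, members were lower, as were most genes. For each spike-in read the siControl libraries held 38.8, 56.7 and 57.9 recovered gene reads and the siChe-1 libraries 22.9 and 19.4. Genes without recovered reads, some of them abundant, are not in these numbers. Fewer cells and less RNA per cell cannot be told apart in such libraries, and the amount of spike-in that each library received was not tested. The library left out of this scale, siChe-1 replicate 3, had a spike-in count like those of siControl, and its gene reads against the spike-ins were not analysed here. In the authors' deposited comparison 71 of 75 members were lower at an adjusted p under 0.05 and 0 higher, where 63.5% of all 12591 genes were lower and 0.0635% higher. The authors' deposited table gave members a median log2 change of -1.62, against -1.25 for all genes. In that table of the authors' deposited values, the members not past the threshold were MRPL41 (adjusted p = 0.272), MRPL23 (0.074), MRPL52 (0.067) and MRPS26 (0.064).

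The lowest members in the authors' deposited table were MRPS34 (-2.04), MRPL1 (-2.00) and MRPL35 (-1.99). The highest there, in the authors' deposited values, were MRPL24 (-1.07), MRPL43 (-1.17) and MRPS21 (-1.26), so members with no call relative to other genes were still lower against the spike-ins. MRPS34 had 2408, 4069 and 3268 spike-in-normalised reads in siControl and 872 and 713 in siChe-1. MRPL24 had 1101, 1810.0 and 1816 and then 794 and 703. In both genes the first siControl library was the lowest of its group and lay above both siChe-1 libraries. With edgeR on the recovered reads and spike-in size factors, 75 of 75 members were called lower, where 84.3% of all genes were (and 0.192% higher), so most of the table shares that call. Without siChe-1 replicate 2 it was 46, where 22.4% of all genes were called, and with the replicate number as a block, on 4 libraries, it was 0 by edgeR, where 60 of 12399 genes were called lower (29 members at an unadjusted p under 0.05).

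Transcript by transcript, the 75 members had 110 transcripts, and 20 members had more than 1. In the authors' deposited table of transcripts 41 of these 110 (37.3%), each of a different member, were significantly lower and 0 higher, where 10.3% of 18716 transcripts were significantly lower. On the rescaled log2(FPKM + 1) scale, 11 members had transcripts of opposite sign, and in 9 of these the most abundant transcript was lower. These 11 were MRPS21, MRPS33, MRPL10, MRPL22, MRPL33, MRPL35, MRPL42, MRPL43, MRPL47, MRPL52 and MRPL55, and the exceptions were MRPS21 and MRPL10. The signs depend on the scaling: in the authors' deposited log2 change every form of MRPS21 and MRPL10 was negative. The main transcript of MRPL35 went from 27.8 ± 1.1 FPKM (SD, n = 3) to 18.1 ± 0.9, while its minor form was at 2.5 ± 1.6 and 2.9 ± 2.1. The main form of MRPL33 was at 99.5 ± 10.9 and 88.3 ± 10.7 FPKM and its minor form at 15.3 ± 3.8 and 20.4 ± 2.3. Neither form of MRPL33, nor the minor form of MRPL35, was significant in the authors' deposited comparison. Cufflinks divides reads between overlapping forms, and that division was not tested.

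Some members share sequence or position with other genes, and reads can then be assigned to either. A processed pseudogene or other pseudogene carries the name of 32 members. Of these 11 were called lower in FPKM (median -0.31), and of the 42 tested members without a pseudogene 18 were (median -0.31). The share called lower was 15.1% over all genes tested. The authors deposited the same span for all transcripts of a member, and the genes HSPD1 and HSPE1, on opposite strands, share a span. A span can therefore be wider than its gene. By these spans 11 members overlap another listed gene, 5 of them on the same strand. The span given for MRPL49 is 64888099 to 64902003 on chromosome 11 (hg19, plus strand). It overlaps that of FAU, a gene on the opposite strand that was at 637 FPKM. The sources used here do not say whether reads were counted by strand.

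Members often lie beside a gene on the other strand. Start sites were taken from the ends of the same hg19 spans, so a start can lie away from that of the gene. On this measure 29.7% of tested members had a gene on the other strand starting within 1000 bases, against 15.3% of all genes tested. Of 11 such pairs with a tested partner that is not itself a member, 2 partners were called higher and 2 lower. Of all genes tested 15.1% were called in each direction. MITD1, whose span starts 50 bases from that of MRPL30, rose by 0.40 ± 0.09 on the log2 scale (limma, adjusted p = 0.0131). It went from 32.2, 36.1 and 31.6 FPKM to 47.6, 42.9 and 42.1. MRPL30, which fell by 0.40, lies beside it with the opposite change. ZNF189, beside MRPL50, was also called higher (0.30, adjusted p = 0.0311). TCP1, a subunit of the cytosolic chaperonin that faces MRPL18, fell by 0.81 (adjusted p = 0.00154), and C10orf2, the mitochondrial DNA helicase that faces MRPL43, fell by 0.32 (adjusted p = 0.0467).

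Promoters were read from RefSeq windows of GRCh38.p14, 250 bases before to 50 after each start site, which gave 82 windows for 66 of the 75 members. The letters AAGATGGC, known as a binding motif of the zinc finger protein YY1, were searched on both strands and stood in 26.8% of member windows, against 2.89% of all windows and 6.65% of those of genes tested. The motif holds ATG, the letters of a start codon, and whether a match marks YY1 binding or a coding start was not tested. Of 23 matches, 17 read forward, and 15 of these, in 15 members, began 7 to 36 bases into the transcript. The 4 members that were called lower in FPKM and carry such a match are shown, with the motif beginning at base 24 of the transcript in MRPL49, 20 in MRPS24, 14 in MRPS30 and 20 in MRPS7. Each line gives 30 bases cut around the motif, 5′ to 3′ on the gene's strand, with the motif in capitals:
MRPL49, chr11:65122333-65122362, plus strand: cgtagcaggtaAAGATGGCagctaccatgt
MRPS24, chr7:43869480-43869509, minus strand: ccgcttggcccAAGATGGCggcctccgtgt
MRPS30, chr5:44808949-44808978, plus strand: aatcgcgggcaAAGATGGCggcggccaggt
MRPS7, chr17:75261887-75261916, plus strand: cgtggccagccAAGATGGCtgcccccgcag

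The letters CCGGAAG, the core bound by ETS factors such as GABPA, stood in 39% of member windows on either strand, against 10.3% of all windows and 21.1% of those of genes tested. Among the 10 members with the smallest p, 9 are in the promoter table and 2 have a match. They are shown with the reverse complement CTTCCGG in capitals, MRPS34 because it holds 2 of its 3 matches next to each other just before the start:
MRPS34, chr16:1773135-1773164, minus strand: tCTTCCGGtgaCTTCCGGccggaccgctga
MRPL16, chr11:59810766-59810795, minus strand: agtgaacacaaCTTCCGGccccactgagcg

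Of the members with AAGATGGC 8 of 20 were called lower, and of those without it 18 of 45, with medians of -0.31 in both. The share called lower was 15.1% over all genes tested. Of those with CCGGAAG 8 of 29 were called, and of those without it 18 of 36, with medians of -0.31 and -0.32. The longer ETS form CCGGAAGT, which contains CCGGAAG, stood in 17.1% of member windows and 9.85% of those of genes tested. The other motifs were about as frequent in member windows as in those of genes tested, or less: the palindromic NRF1 motif with 1 open base stood in 11% against 12.7%, its stricter form in 1.22% against 2.41%, the E-box CACGTG of MYC and MAX in 11% against 10.5%, and GGGCGG of SP1 in 61% against 67.9%. MRPL1 and MRPL34, which were among the members with the smallest p, held neither AAGATGGC nor CCGGAAG in their windows.

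Other proteins of mitochondrial gene expression were then set beside the members, all on the FPKM scale, where 15.1% of genes were called in each direction. Of 7 mitochondrial ribosomal proteins with other symbols, 2 were called lower. GADD45GIP1, a large-subunit protein also named CRIF1, was at 113, 88.7 and 117 FPKM in siControl and at 60.2, 65.8 and 56.6 in siChe-1 (-0.78 ± 0.12, limma, adjusted p = 0.00421), and ICT1, a large-subunit peptidyl-tRNA hydrolase, was at -0.56. DAP3, the GTP-binding protein of the small subunit, was at 91.3, 94.4 and 100.3 FPKM and at 94.8, 94.4 and 90.7 in siChe-1, which overlap (-0.03, adjusted p = 0.808). Of 15 tested assembly and rRNA modification factors 4 were called lower. These were NGRN, which works on the large-subunit RNA (-0.84, adjusted p = 0.00206), the assembly GTPase NOA1 (-0.47), the pseudouridine synthase family member TRUB2 (-0.46) and MPV17L2 (-0.34).

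**Figure D5:**
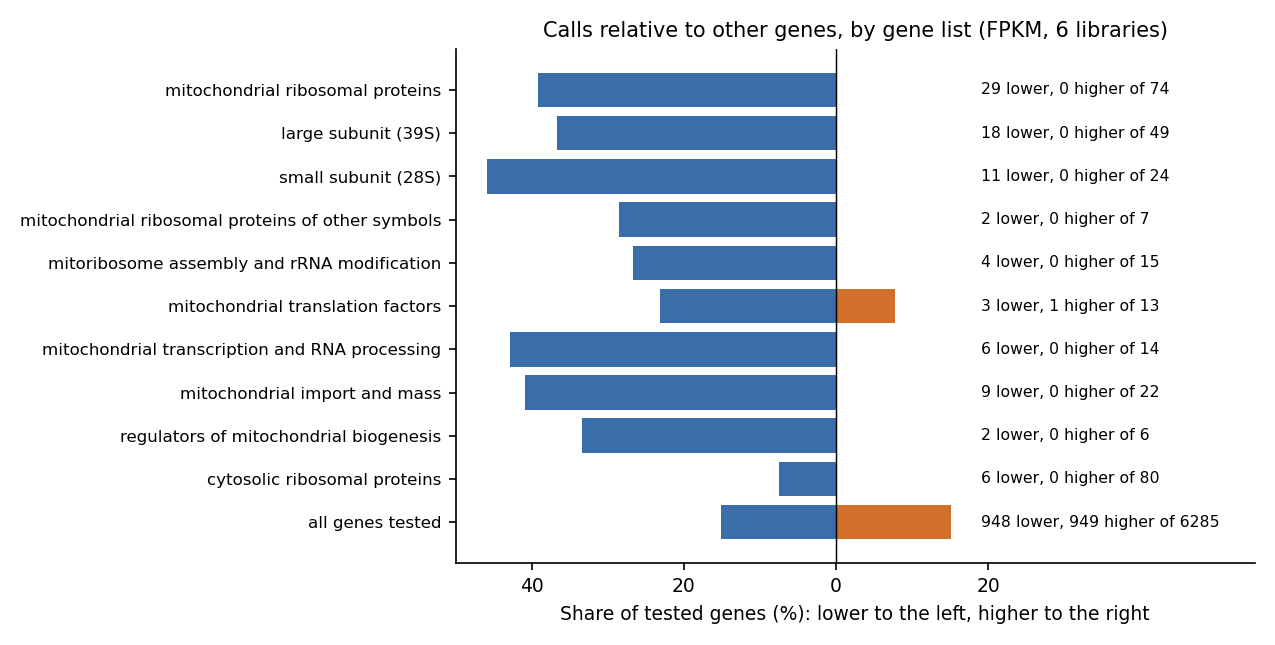
Share of tested genes called lower (blue, to the left) and higher (orange, to the right) by limma on FPKM (horizontal axis, %), for the members, both subunits, related lists and all genes tested, with counts at the right. The members (29 lower of 74) and the import and mass list (9 of 22) reach further left than all genes (948 of 6285), while the cytosolic ribosomal proteins (6 of 80) do not.

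Among 13 tested translation factors 3 were called lower and 1 higher. SLIRP, which binds mitochondrial messages with LRPPRC, was the most abundant, at 571, 502 and 681 FPKM in siControl and at 417, 327 and 379 in siChe-1 (-0.64 ± 0.15, limma, adjusted p = 0.0158). Without listed siChe-1 library 3 its adjusted p was 0.0576, and without listed siControl library 3 0.0525. The elongation factor TUFM (-0.53, adjusted p = 0.0496) and the recycling factor MRRF (-0.34, adjusted p = 0.0439) were the others that were lower. GFM2, which acts with MRRF in ribosome recycling, went the other way, from 30.9, 21.8 and 31.3 FPKM to 47.3, 38.0 and 39.7, with no overlap (0.57 ± 0.15, adjusted p = 0.0270).

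Of 14 genes of mitochondrial transcription and RNA processing 6 were called lower. The RNA-degrading enzyme PNPT1 was at 46.6 to 47.4 FPKM in siControl and at 35.7 to 38.1 in siChe-1 (-0.35 ± 0.07, limma, adjusted p = 0.00918). TFAM, which packages mitochondrial DNA and starts its transcription, was at 88.1, 72.6 and 71.8 FPKM and at 64.2, 56.6 and 60.0 in siChe-1 (-0.35 ± 0.11, adjusted p = 0.0402). Its call was lost without each library except listed siControl library 2, with adjusted p-values of 0.0626 to 0.120, and with upper quartile scaling (0.0638). Of 22 genes of import and mitochondrial mass 9 were called lower and all 22 changes were negative, with a median of -0.35. TIMM50, a subunit of the inner-membrane import channel, was at 30.6 to 31.3 FPKM in siControl and at 21.7 to 22.7 in siChe-1 (adjusted p = 0.00258), and the chaperonin HSPD1 was at 692, 822 and 763 FPKM and at 461, 563 and 466 (-0.61, adjusted p = 0.00956).

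Of 6 tested regulators of mitochondrial biogenesis 2 were called lower, TFAM and MYC. MYC was at 300, 285 and 267 FPKM in siControl and at 159.9, 149.7 and 140.2 in siChe-1, a fall of 0.92 ± 0.10 (log2, limma, adjusted p = 0.00109). Of 80 cytosolic ribosomal proteins 6 were called lower and 0 higher, with a median of -0.14. RPL22L1, a paralogue of RPL22, had the smallest p among them and fell by 0.63 (adjusted p = 0.00625). The most abundant, RPS27, was at 3760, 5591 and 4463 FPKM in siControl and at 5242, 6228 and 5085 in siChe-1, which overlap (adjusted p = 0.243). The difference between mitochondrial and cytosolic ribosomal proteins was not tested.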

How the data were processed

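RNA sequencing of KMS-27 cells, 3 siControl and 3 siChe-1 libraries, was analysed from 3 deposited tables. The submitters' processing notes name the build hg19 and the tools TopHat, Cufflinks, Cuffdiff, HTSeq and DESeq2, without versions or roles. The authors deposited a count of reads for each spike-in and library. They deposited FPKM values for transcripts, with 3 values per group that carry no replicate number and are named here by their place in the list, and their own log2 of the group ratio with p-values and q-values, per the file headers. They also deposited a comparison table with group means of a signal, which is the read count divided by a spike-in size factor, and in the same table the authors' fold change (ratio), log2 fold change, p-value and adjusted p-value.

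Transcripts were summed by gene. Those averaging 10 FPKM or more were rescaled by the median of ratios, and log2(FPKM + 1) was tested with limma 3.58.1 with a mean-variance trend. A fold on this scale understates the change of low genes. Whole reads of 5 libraries were recovered from the authors' means for 16321 of 16444 genes (99.3%), all 75 members among them. At a relative tolerance of 8e-15, 100% of low means were whole reads with siChe-1 replicates 1 and 2, and 0% with any other set. These reads were tested with edgeR 4.0.16 (quasi-likelihood, at least 10 normalised reads on average), with spike-in size factors and with TMM. DESeq2 1.42.0 was an alternative. The planned design did not foresee that the table held 5 libraries. P-values are two-sided and adjusted by Benjamini-Hochberg over all genes tested, with a threshold of 0.05.

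Members and lists were chosen with earlier results of these data known. The text names AATF, the 10 members with the smallest p, the 6 with the highest change, the 3 most abundant of each subunit, the 3 lowest and 3 highest in the spike-in table, members with transcripts of opposite sign, and of each other list the most abundant gene and the one with the smallest p. Members of counts of 5 or fewer were named after their values were seen, and so were FAU, MRPL40, MRPS2, MRPL18, MRPL30, MRPL50 and the genes facing them. Promoter sequence is shown as sites of 30 bases. Tests were tried on simulated data in which 200 genes had a known log2 change. At a change of 0.5 the limma test (6285 genes) found 43% of them, and at a change of 1 it found 88%. The edgeR tests (12468 genes) found 28.5% and 85.5% with TMM, and 2% and 36% with spike-in factors. At these 2 sizes, false calls among the other genes numbered 5 and 7 with limma. They numbered 9 and 18 with TMM, and 0 and 3 with spike-in factors.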

Additional observations from a re-analysis of the deposited data

How the results depend on the processing

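Limits: 3 libraries a group leave changes under about 0.5 on the log2 scale often uncalled, and reads per member were as few as 64. Each alternative kept the direction of the members as a group, and 0 members were called higher under any FPKM or TMM alternative. Leaving out single libraries in turn gave 9 to 29 members called lower in FPKM, 17 to 39 from reads with TMM and 46 to 75 on the spike-in scale, where fewer libraries were tested. The share of all genes called lower fell in such fits too. In FPKM it was 15.1% with no library left out and 7.98% without listed siChe-1 library 3, where 9 members were called. With TMM it was 15.3% and, without siControl replicate 3, 9.33%, where 17 members were called. The 8 members called under every FPKM alternative were MRPL1, MRPL4, MRPL11, MRPL34, MRPL35, MRPL36, MRPL49 and MRPS34. How many of all genes were called under every alternative was not analysed here. Over members with no pseudogene of their name, an alternative chosen after seeing the data, 18 of 42 were called, since fewer genes were counted. The share called lower was 15.1% over all genes tested. With no minimum FPKM the members' median minus that of all genes was -0.385 instead of -0.306, and against genes of like length and FPKM, also added after seeing the data, it was -0.263.

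The replicate numbers have no stated shared origin. Same-numbered libraries correlated at 0.214 and 0.235 in their deviations from group means. With 2 siChe-1 libraries these deviations mirror each other, so each siControl library correlates with them at equal and opposite values. The 2 pairs are therefore not separate evidence, and they cannot show whether the numbers pair the samples. With a replicate block on these 4 libraries, 0 of 75 members were called on the spike-in scale and 35 with TMM. On the spike-in scale 60 of 12399 genes were called lower in that fit. The share of all genes called in the blocked TMM fit was not analysed here, so the 35 cannot be set against it.

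Of 442 values of 34 named genes under alternatives, 399 kept direction and side of the threshold, 14 were no longer past it, 4 (all MRPL3) came to pass it, and 25 turned sign, none of them called. On the FPKM scale as deposited MRPS31 was at -0.000239, MRPS14 at -0.0172, MRPS36 at -0.0242, MRPS21 at -0.0320, MRPL10 at -0.0518 and MRPL43 at -0.0725. With no minimum FPKM, MRPS14 was at -0.000608, MRPS36 at -0.00712, MRPS21 at -0.0145, MRPL10 at -0.0348 and MRPL43 at -0.0554, and with a minimum of 1 MRPL10 was at -0.0205 and MRPL43 at -0.0409. DAP3 was at 0.0337 with upper quartile scaling. Over the fits without single libraries, MRPS31 ran from -0.00917 to 0.17, MRPS36 from -0.00577 to 0.119, MRPL10 from -0.0862 to 0.198, MRPL33 from -0.138 to 0.00328, MRPL43 from -0.0705 to 0.12 and DAP3 from -0.064 to 0.0022. The cause was not tested.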
